A study of Capra hircus with 4 samples.

Results

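Macrophages that carried transcripts of complement C1q formed a small class in goat ovary nuclei, with 893 of 48332 nuclei. A nucleus entered the class when it held at least 400 UMIs (unique molecular identifiers, which count captured RNA molecules), at least 1 UMI of 2 or more of the chain genes C1QA, C1QB and C1QC, and a UMI of at least 1 macrophage gene among CSF1R, MRC1, VSIG4, MSR1, SYK and CD74. CD163, the other gene named in the rule, had no feature of that name in the matrices. Ovarian tissue of 2 Du'an and 2 Nubian goats was profiled by droplet sequencing of nuclear RNA, and each goat gave 1 library. All 4 goats were about 3 years old and had been synchronised in estrus with an intravaginal device that held 300 mg of progesterone for 17 days. The breeds were chosen for litter size, with litters of 1 kid in the Du'an does and of 3 in the Nubian does. Breed cannot be told apart from litter size or from other features common to the 2 goats of a breed.

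C1q is the recognition part of the classical complement pathway. It is assembled from A, B and C chains, binds antibody on surfaces and also dying cells, and is made mainly by tissue macrophages. In the ovary, macrophages lie in the stroma and around regressing follicles and corpora lutea, where they engulf dying granulosa and luteal cells, break them down in lysosomes, and store the iron and lipid that are released. The chain genes lie side by side in the goat RefSeq gene table, with no other gene between them.

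The libraries held 9364 and 10893 nuclei in Du'an goats 1 and 2, and 16988 and 11087 in Nubian goats 1 and 2. Their totals were 40573246, 60566681, 71613892 and 52783453 UMIs over 28944 features. The class counted 77, 322, 144 and 350 nuclei in the same order, and its summed depth was 735418, 4104192, 1250747 and 9200848 UMIs. Values below are given in this order of goats unless stated. Levels are CPM, the UMIs of a gene per 1000000 UMIs summed over the nuclei of a class in a goat.

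Some nuclei of the class shared their cell barcode with a nucleus of another library. Of all 48332 nuclei, 784 carried 1 of 361 barcodes that occurred in 2 or more libraries. In the class this was so for 49, 14, 25 and 93 nuclei, which made 63.6%, 4.35%, 17.4% and 26.6% of it, against 1.86%, 1.27%, 1.04% and 1.12% of the other nuclei. In 79 of these 181 nuclei the copy in another library was deeper, by a median factor of 96.2, and in 73 of the 79 that deeper nucleus was also in the class. The deepest copy lay in Nubian goat 2 for 61 of the 79. Du'an goat 1 was touched most, since 42 of its 77 nuclei were such shallower copies, with a median of 900 UMIs. The other 102 nuclei were the deepest copy of their barcode, and 85 of them lay in Nubian goat 2, with a median of 75930 UMIs. Leaving out all shared barcodes thus also removes these deep nuclei. Counts of genes that rose or fell are therefore also given without shared barcodes for the lists described, while levels are those of all nuclei.

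The class was chosen by its UMIs of the C1q chains and macrophage genes, so their values are given as a description, with no test. C1QC was measured at 3622, 2338, 2721 and 1644 CPM in the class. C1QA stood at 3402, 2321, 2714 and 931 CPM, and C1QB at 2174, 1806, 1988 and 914 CPM. Nubian goat 2 was lowest for every chain, and there C1QC made up 47.1% of the C1q UMIs and C1QA 26.7%, while C1QA took 37.0%, 35.9% and 36.6% in the other goats. The class held 95.6%, 96.5%, 93.0% and 97.4% of all C1q UMIs of the libraries. Nuclei of granulosa cells, which surround the oocyte and are not macrophages, showed 3.48, 12.2, 7.88 and 11.3 CPM of C1q when those in the class were left out. With the 1, 106, 80 and 30 nuclei that met both definitions they showed 3.71, 210, 111 and 112 CPM, so that the lower values follow in part from the rule. A C1q UMI was present in 2.54%, 7.62%, 3.44% and 7.06% of the granulosa nuclei outside the class, and in 2.58%, 9.07%, 4.05% and 7.86% with its members. The median depth of those outside was 6563.5, 5271, 3186.5 and 5009 UMIs, against 1185, 8366, 2960 and 7034 UMIs in the class.

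Among the macrophage genes of the rule, CD74, the invariant chain that guides class II molecules, was highest at 4323, 4955, 5429 and 3722 CPM, and 83.1%, 91.0%, 90.3% and 96.6% of the nuclei had a UMI of it. CSF1R, the receptor that macrophages need for survival, stood at 283, 266, 342 and 167 CPM. The scavenger receptor MSR1 reached 613, 588, 392 and 603 CPM and the mannose receptor MRC1 658, 417, 601 and 188 CPM. CD74 was the only macrophage gene found in 192 of the 893 nuclei, and 553 nuclei had 3 or more of the 6 genes.

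The class was not uniform. All 3 chains were found in 594 nuclei and exactly 2 in 299, and 212 nuclei entered with 3 or fewer C1q UMIs. Just outside the rule lay 755 nuclei with 1 chain and a macrophage gene, and 78 nuclei with 2 or 3 chains and no macrophage gene. Genes of macrophage identity outside the rule (18 genes, among them TYROBP, CD68, AIF1, SPI1 and LAPTM5) summed to 6773 CPM in nuclei with 3 chains, 3216 CPM with exactly 2 and 1416 CPM in the nuclei with 1 chain outside, against 284 CPM in all other nuclei. Granulosa genes ran the other way, with 351, 1422 and 3382 CPM in those sets and 6585 CPM in all other nuclei. The nuclei with chains but no macrophage gene had 752 CPM of identity genes and 5825 CPM of granulosa genes.

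**Figure D1:**
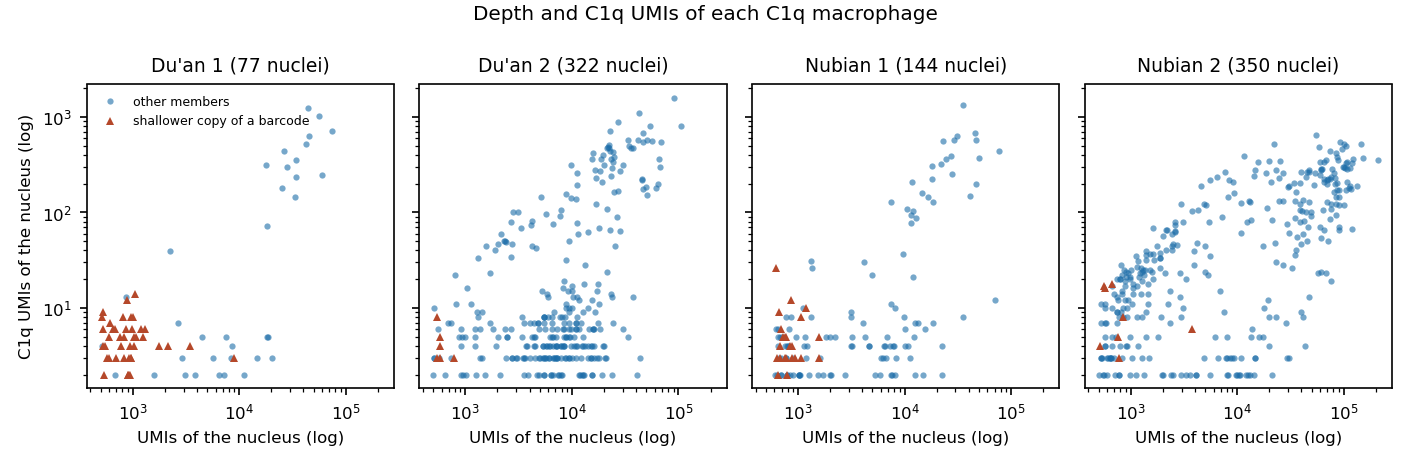
Each point is 1 nucleus of the class, with its UMIs on the x axis and its C1q UMIs on the y axis, both on log scales, in 1 panel per goat. Triangles mark shallower copies of a barcode found in another library, 42 of the 77 nuclei in Du'an goat 1; in all goats an upper band with many C1q UMIs and a lower band with few at the same depth can be seen.

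The plot of depth against C1q UMIs showed an upper and a lower band, and a split at 0.1% of a nucleus's UMIs, set after that plot was seen, describes them. C1q was at or above 0.1% in 63, 183, 109 and 291 nuclei and below it in 14, 139, 35 and 59. A member below the split is deep by construction, since the rule asked for at least 2 C1q UMIs, and the part of depth in the values of the bands was not tested. Their identity genes summed to 2339, 2720, 1391 and 5037 CPM, against 8458, 7234, 8098 and 6917 CPM above the split, so that the 2 bands did not overlap between goats. Granulosa genes summed to 386, 1448, 4045 and 279 CPM below the split and to 175, 475, 949 and 139 CPM above it, higher below the split within each goat. In macrophage nuclei with no C1q UMI, described further on, the identity genes summed to 4209, 2309, 2196 and 4650 CPM, above the lower band in Du'an goat 1 and Nubian goat 1 and below it in the other goats.

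Genes of other cell types were seen in many nuclei of the class. At least 2 genes of a list for another cell type had a UMI in 24, 258, 123 and 200 nuclei, and at least 3 granulosa genes in 1, 106, 80 and 30. Identity genes summed to 5088 CPM in the 217 nuclei with granulosa genes and to 6624 CPM in the 676 without them. Stromal genes, led by the collagen gene COL3A1, summed to 1431 CPM in the class of Nubian goat 1 and to 46.2, 64.6 and 24.1 CPM in Du'an goats 1 and 2 and Nubian goat 2. Red blood cell genes (HBM and ALAS2) had no UMI in the class. Of 9 neutrophil and mast cell genes, MPO, MS4A2 and HDC had none and 6 were detected, with a sum of 51.7, 30.9, 76.0 and 15.8 CPM, led by KIT. B cell genes summed to 136, 488, 141 and 67.2 CPM in the class and to 19.2, 60.0, 25.9 and 24.6 CPM in all other nuclei, higher in the class in every goat. The sums were not particular to the class. Macrophages without C1q, described further on, had 419, 488, 249 and 194 CPM, in no goat below the class. T or natural killer nuclei had 331, 220, 236 and 212 CPM, below the class in Du'an goat 2 alone. In the class nearly all of the sum was BANK1, a signalling adaptor of B cells, at 131, 474, 127 and 60.3 CPM. Of the defining B cell genes CD79B had no UMI there, and MS4A1, CD79A and PAX5 had at most 1.71 CPM in any goat. No doublets were removed, and the part of joined nuclei or free RNA in these levels was not tested.

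Set against all 47439 other nuclei, the class had higher levels of macrophage identity and lysosomal genes and lower levels of most granulosa, endothelial and smooth muscle genes tested. Of 16857 genes tested, 4496 rose (26.7%) and 6727 fell (39.9%), with a median log2 fold change over all genes of -0.56. Without shared barcodes 4732 of 16596 rose (28.5%) and 5333 fell (32.1%). All 18 identity genes outside the rule rose, and 31 of 32 lysosomal genes did so, with none that fell. Granulosa genes fell in 11 of 12, blood endothelial genes in 7 of 8, lymphatic endothelial genes in 6 of 6 and smooth muscle and pericyte genes in 6 of 8. Without shared barcodes, all 18 identity and all 32 lysosomal genes rose, 10 of 12 granulosa genes fell, and the counts for endothelial and smooth muscle genes were as before. On the identity genes that the rule had not used, the class went with its label. Among B cell genes 2 of 7 rose, BANK1 and JCHAIN, and 1 fell (3 and 1 without shared barcodes).

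The adaptor TYROBP, which carries signals of activating receptors, was measured at 1285, 781, 992 and 1456 CPM in the class and at 7.05, 3.90, 4.97 and 46.5 CPM in all other nuclei. The groups were far apart in every goat, with a log2 fold change of 6.82 ± 0.55 (SE, n = 4 goats, adjusted p = 2.21e-05, edgeR quasi-likelihood test blocked by goat, Benjamini-Hochberg adjusted over all genes). CD68, a lysosomal membrane protein of macrophages, stood at 804, 543, 628 and 890 CPM against 4.69, 3.91, 3.98 and 14.4 CPM. SPI1, which encodes the transcription factor PU.1, rose by 5.94 ± 0.38 on the log2 scale and IRF8, its partner in myeloid cells, by 4.38 ± 0.31.

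Among the genes named, the largest rises outside the rule were those of FOLR2 and CD209. FOLR2, a folate receptor of tissue macrophages, had a log2 fold change of 8.39 ± 0.66, and CD209, a lectin of macrophages and dendritic cells, 8.33 ± 0.74. S100A8 and S100A9, the calcium-binding proteins of monocytes and neutrophils, rose by 8.02 ± 0.62 and 7.40 ± 0.52. RETN rose by 7.84 ± 0.61, the lysosomal protease gene CTSL by 7.43 ± 0.44, and TREM2, a lipid-sensing receptor, by 7.32 ± 0.51. LYVE1, a hyaluronan receptor found on some resident macrophages and on lymphatic vessels, was low, at 0, 0.487, 10.4 and 2.72 CPM against 14.7, 14.9, 12 and 6.49 CPM. It fell by 2.17 on the log2 scale (adjusted p = 0.0232, edgeR), a call that was lost without Du'an goat 1, without Du'an goat 2, without shared barcodes and without nuclei of other types. CX3CR1, the fractalkine receptor of many resident macrophages, rose by 3.37 ± 0.49 but stood at only 5.44, 17.5, 44.0 and 6.09 CPM.

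Among granulosa genes, FSHR, the receptor for follicle-stimulating hormone, was measured at 78.9, 207, 220 and 38.6 CPM in the class against 1578, 2024, 1483 and 1183 CPM elsewhere, a log2 fold change of -3.98 ± 0.44. The activin inhibitor FST fell by 4.39 on the log2 scale and NR5A2, a regulator of steroid synthesis, by 4.05. Aromatase (CYP19A1) fell by 3.88, a call lost without the goat block. STAR, which moves cholesterol into mitochondria for steroid synthesis, went against its list. It stood at 222, 114, 253 and 406 CPM in the class and 1.56, 3.03, 2.86 and 5.58 CPM elsewhere, a log2 fold change of 6.09 ± 0.39, while 3 of the 4 theca genes tested fell, with and without shared barcodes. With STAR in it, the theca list summed to 245, 157, 299 and 420 CPM in the class and 123, 94.5, 109 and 106 CPM elsewhere. INSL3, the defining hormone of theca cells, had no UMI in the class.

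The other lists differed in how many of their genes rose. Fc receptors and their proximal signalling genes rose in 16 of 16, with a median log2 fold change of 4.60, and again in 16 without shared barcodes. Sensors and cytokines of inflammation rose in 21 of 25 (22 without shared barcodes) and antigen presentation genes in 14 of 16, with 1 that fell (14 and 0). Complement genes beyond C1q rose in 14 of 23 and fell in 2, as they did without shared barcodes. T and natural killer genes fell in 11 of 14 and rose in 1, NKG7, a granule membrane protein, with 3.49 ± 0.66. Without shared barcodes 10 fell and 3 rose. Efferocytosis and scavenging genes, which many ovarian cells share, divided into 11 that rose and 10 that fell of 25 (11 and 8 without shared barcodes). Their sum was 4335, 4953, 4693 and 3048 CPM in the class and 4532, 4269, 3869 and 3319 CPM elsewhere, lower in the class in Du'an goat 1 and Nubian goat 2. Of 20 genes named for this comparison, 19 or 20 kept their call in each alternative, while the count of all genes that rose was 2710 of 16139 when nuclei with genes of other types were left out.

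**Figure D2:**
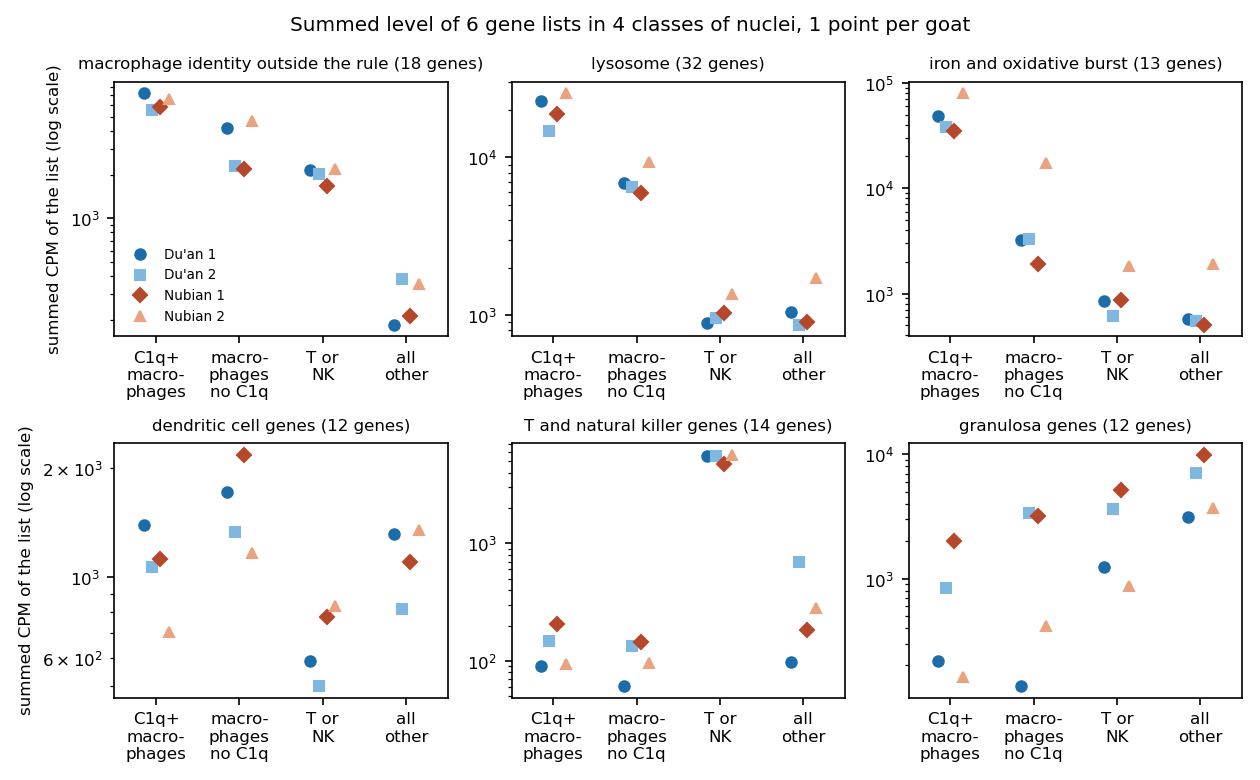
Summed level of each gene list (CPM, log scale) in C1q macrophages, macrophages with no C1q UMI, T or natural killer (NK) nuclei and all other nuclei, with 1 point per goat. Identity, lysosomal and iron genes were highest in C1q macrophages in every goat, and granulosa genes were highest in all other nuclei.

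The closest class was macrophage nuclei with no C1q UMI, which had at least 2 of CSF1R, MRC1, VSIG4 and MSR1. There were 31, 63, 142 and 80 of these, with median depths of 3787, 6123, 2844.5 and 8398.5 UMIs. Most genes tested of the lysosome, of iron handling and of complement beyond C1q rose in the C1q class, and so did 9 of 16 of lipid handling. Dendritic cell genes fell in 5 of 8 and granulosa genes in 6 of 10, counts that were 2 of 7 and 0 of 10 without shared barcodes. The dendritic cell counts are a description, since several of these genes had few UMIs in the C1q class. In this fit 2287 of 10152 genes rose (22.5%) and 1615 fell (15.9%), and the median log2 fold change over all genes was -0.02. Without the goat block 18 genes rose and none fell, and without shared barcodes 850 of 9864 rose (8.62%) and 144 fell (1.46%). When the shallower copies alone were left out, 2226 of 10101 rose and 1497 fell. The 5 genes named here that kept their call without the block were FOLR2, SPP1, PLD3, CD68 and CFD.

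Lysosomal genes rose in 22 of 32, with a median log2 fold change of 1.80, and in 18 without shared barcodes. CTSD, an aspartic protease of the lysosome, was measured at 2809, 1609, 2643 and 5039 CPM in the C1q class and at 339, 278, 333 and 956 CPM in macrophages without C1q. The classes did not overlap, with a log2 fold change of 2.96 ± 0.31 (n = 4 goats, adjusted p = 0.000347, edgeR). CD68 stood at 804, 543, 628 and 890 CPM against 56.6, 36.7, 53.7 and 141 CPM, a log2 fold change of 3.64 ± 0.26. PLD3, a lysosomal exonuclease, rose by 3.91 ± 0.27, CTSL by 3.45 ± 0.30 and the progranulin gene GRN by 2.77 ± 0.37. No lysosomal gene fell.

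Iron genes rose in 7 of 9, and 1 fell, and without shared barcodes 4 rose and none fell. FTH1, the heavy chain of ferritin, which stores iron, was the most abundant list gene, at 45633, 35655, 32932 and 74232 CPM against 2446, 2288, 1059 and 15948 CPM. Its log2 fold change was 4.08 ± 0.81 (adjusted p = 0.00415, edgeR), but the call was lost when either Du'an goat or Nubian goat 1 was left out. The light chain gene FTL stood at 2569, 2065, 1686 and 4997 CPM against 325, 521, 138 and 737 CPM and rose by 3.05 ± 0.36. BLVRB, an enzyme of heme breakdown, rose by 2.84 ± 0.27. SLC40A1, the ferroportin that exports iron, was lower, at 28.6, 143, 220 and 63.5 CPM against 259, 229, 512 and 228 CPM, and fell by 1.38, a call lost without shared barcodes, without nuclei of other types and without Nubian goat 2. NCF4, a subunit of the phagocyte oxidase, rose by 1.42 ± 0.25, a call lost without nuclei of other types.

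FTH1 varied with depth inside the class. In Du'an goat 2 the 107 nuclei with the most UMIs had 48224 CPM, the 107 of middle depth 3429 CPM and the 108 shallowest 9002 CPM. In Nubian goat 2 the corresponding values were 82483, 16884 and 22290 CPM, and in Nubian goat 1 35953, 10791 and 46771 CPM. C1QA in Nubian goat 2 was 615 CPM in the 116 deepest nuclei and 5032 CPM in the 117 shallowest. In the other goats the deepest nuclei were higher, at 3604 against 2370, 2741 against 1928 and 3023 against 2115 CPM. A shallow member has a high C1q CPM by construction, since the rule asked for at least 2 C1q UMIs. In Du'an goat 1 the 26 shallowest nuclei had 81455 CPM of FTH1, against 43019 CPM in the 25 deepest. Those 26 nuclei held 510 to 919 UMIs, and the shallower copies of this goat had a median of 900. CTSD also varied with depth. From the shallowest to the deepest nuclei it stood at 845, 870 and 5645 CPM in Nubian goat 2 and at 563, 518 and 2049 CPM in Du'an goat 2, and at 7991, 3644 and 2607 CPM in Du'an goat 1 and 2494, 1247 and 2870 CPM in Nubian goat 1. In Nubian goat 2 the nuclei of shallow and middle depth were thus below the 956 CPM of macrophages without C1q, and the 5039 CPM of the whole class was near the value of its deepest nuclei.

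**Figure D3:**
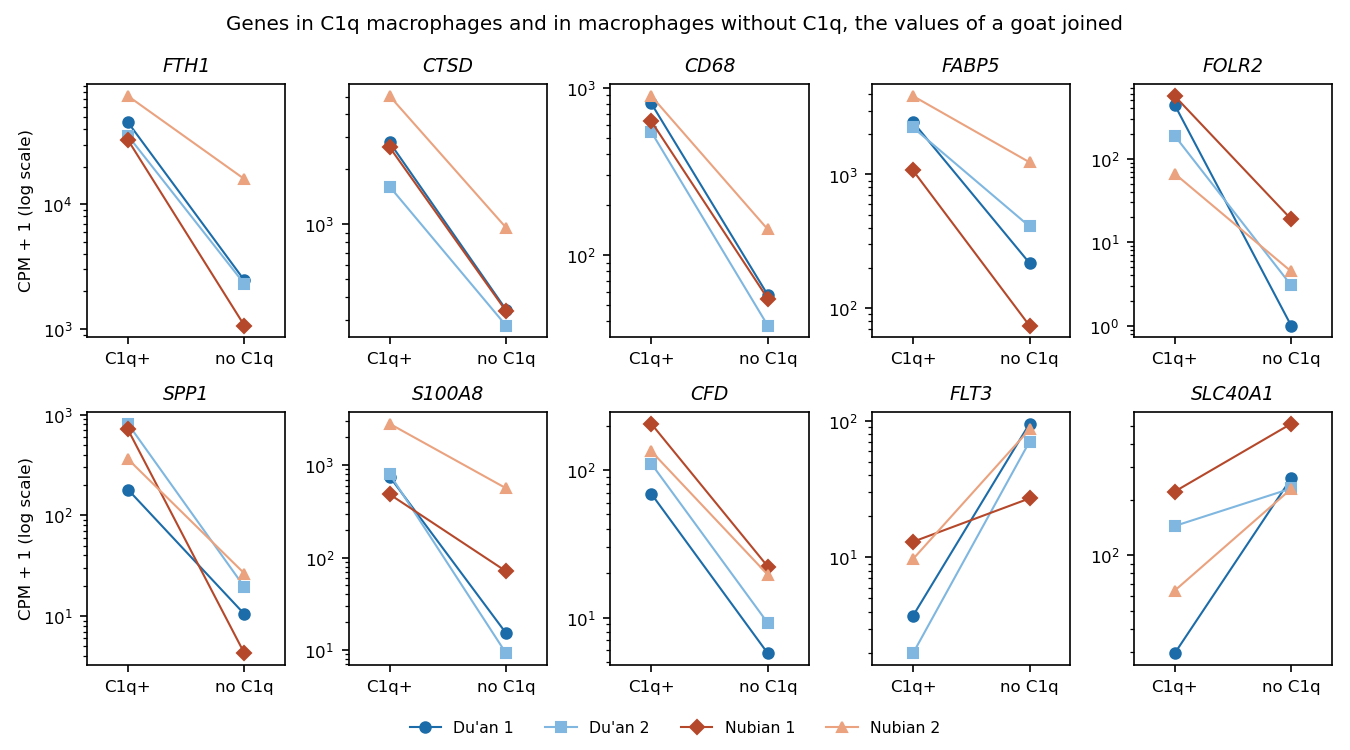
CPM plus 1 (log scale) of 10 genes in C1q macrophages (C1q+) and in macrophages with no C1q UMI, with the values of a goat joined by a line. FTH1, CTSD, CD68, FABP5, FOLR2, SPP1, S100A8 and CFD were higher in C1q macrophages in 4 of 4 goats, and FLT3 and SLC40A1 were lower in 4 of 4.

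Complement genes beyond the C1q chains rose in 11 of 17, none fell, and 8 of 16 rose without shared barcodes. CFD, factor D of the alternative pathway, stood at 68.0, 109, 205 and 133 CPM against 4.71, 8.17, 21.1 and 18.5 CPM, a log2 fold change of 3.47 ± 0.25 (adjusted p = 5.93e-05, edgeR). C2, which C1q-bound proteases cleave in the classical pathway, was measured at 31.3, 29.2, 39.2 and 3.59 CPM against 4.71, 2.04, 0 and 0 CPM. The latter are 2 UMIs in all, so C2 could enter the test through the C1q class alone, and no fold is given for it among the 11. Properdin (CFP) rose by 2.10 ± 0.29. The anaphylatoxin receptor C5AR2 stood at 20.4, 30.9, 35.2 and 27.7 CPM against 9.43, 6.12, 4.88 and 10.4 CPM. It also had few UMIs in macrophages without C1q and entered the test mainly through the C1q class, so no fold is given. C3, the central component, is named outside the rule, after its values were seen, as the most abundant gene of the list over all goats. In Nubian goat 2 CFD was above it. C3 reached 647, 382, 518 and 113 CPM against 94.3, 145, 197 and 151 CPM, lower in Nubian goat 2 alone. Its rise of 1.42 ± 0.37 lost its call without Du'an goat 1 and without nuclei of other types.

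Genes of lipid handling rose in 9 of 16, none fell, and 5 rose without shared barcodes. FABP5, a fatty acid carrier, was measured at 2464, 2245, 1072 and 3856 CPM against 217, 408, 73.2 and 1232 CPM, and rose by 3.05 ± 0.39. LPL, the lipoprotein lipase, rose by 3.39 ± 0.37, APOE by 2.55 ± 0.40 and the phospholipid transfer protein gene PLTP by 2.40 ± 0.27. STAR was again higher in the class, with 42.4, 40.8, 58.6 and 65.8 CPM in macrophages without C1q and a log2 fold change of 2.40 ± 0.26.

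FOLR2 stood at 442, 188, 564 and 65.3 CPM against 0, 2.04, 17.9 and 3.47 CPM. The lowest value of the C1q class lay above the highest of the other. Macrophages without C1q held few UMIs of FOLR2, which entered the test mainly through the C1q class, so no fold is given for it. SPP1, the secreted phosphoprotein osteopontin, stood at 179, 811, 711 and 361 CPM against 9.43, 18.4, 3.25 and 25.4 CPM and rose by 5.35 ± 0.44. CD209 stood at 260, 79.4, 243 and 88.0 CPM against 0, 8.17, 4.88 and 26.6 CPM. The latter are 30 UMIs in all, 23 of them in Nubian goat 2, so no fold is given for CD209 either. CD5L, a secreted scavenger protein of macrophages, rose by 2.69 ± 0.29, but Du'an goat 2 had only 1.46 CPM of it beside 264, 413 and 95 CPM in the others, and its call was lost without nuclei of other types. Of 11 genes of resident macrophages tested, 5 rose and 1 fell (3 and 0 without shared barcodes), and several of the largest changes outside the lists were locus tags with no symbol.

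Monocyte genes also rose, 6 of 10, with 2 that rose without shared barcodes. S100A8 stood at 752, 802, 484 and 2812 CPM against 14.1, 8.17, 69.9 and 561 CPM, so that the value of Nubian goat 2 without C1q lay above that of Nubian goat 1 with it. Its log2 fold change was 3.97 ± 0.57, and that of S100A9 3.18 ± 0.44. FCN1, a ficolin of monocytes, stood at 906, 392, 245 and 255 CPM against 18.9, 24.5, 37.4 and 318 CPM, lower in Nubian goat 2 alone, and rose by 2.80 ± 0.68 in the fit. These 3 calls were lost without shared barcodes.

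Identity genes outside the rule rose in 14 of 18, with a median of 1.22, and in 10 of 18 without shared barcodes. LAPTM5, a lysosomal adaptor of blood cells, stood at 763, 745, 907 and 690 CPM against 302, 167, 135 and 465 CPM. It rose by 1.91 ± 0.31, and FCER1G, the common Fc receptor chain, by 2.22 ± 0.32. TYROBP rose by 1.45 ± 0.35, a call lost without Du'an goat 2 and without Nubian goat 1. ADGRE1, the F4/80 receptor, rose by 1.83 ± 0.37, a call lost without shared barcodes and without nuclei of other types.

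Of 16 Fc receptor and proximal signalling genes, 7 rose and 1 fell, and without shared barcodes 4 rose and none fell. FCGRT, the recycling receptor for antibody, led them, with 1062, 423, 896 and 756 CPM against 80.1, 71.4, 78.1 and 318 CPM and a log2 fold change of 2.91 ± 0.36. The inhibitory phosphatase gene PTPN6 rose by 1.28 ± 0.24, a call lost without nuclei of other types. PLCG2, a phospholipase downstream of these receptors, fell by 0.78, a call lost without shared barcodes, without Du'an goat 1 and without Nubian goat 2.

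Antigen presentation genes rose in 7 of 16, none fell, and 4 rose without shared barcodes. IFI30, a thiol reductase that opens antigens in the lysosome, stood at 2754, 1304, 1205 and 2966 CPM against 589, 396, 164 and 1376 CPM. It rose by 2.19 ± 0.32, and CTSS, the protease that trims the invariant chain, by 2.04 ± 0.26. B2M, the light chain of class I molecules, rose by 1.83 ± 0.46, a call lost when either Du'an goat or Nubian goat 1 was left out. CD74 itself, which the rule used, stood at 9615, 1429, 1947 and 5110 CPM in macrophages without C1q, so that Du'an goat 1 and Nubian goat 2 were above the C1q class and the other goats below it.

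Of 25 transcription factor genes 7 rose and 2 fell, near the 22.5% of all genes that rose, and 3 rose and none fell without shared barcodes. SPI1 was measured at 242, 174, 157 and 225 CPM against 189, 63.3, 37.4 and 170 CPM, so that the classes overlapped between goats. It rose by 1.25 ± 0.26 (adjusted p = 0.00486, edgeR). CEBPB rose by 1.88 ± 0.40, though it was 388 against 405 CPM in Nubian goat 2. NR1H3, the oxysterol receptor LXR alpha, also passed, at 36.7, 36.1, 32.0 and 31.4 CPM against 4.71, 26.5, 1.63 and 11.6 CPM. The latter are 25 UMIs in all, so no fold is given for NR1H3. Each of these 3 calls was lost in at least 1 alternative: those of SPI1 and CEBPB without nuclei of other types, those of NR1H3 and CEBPB without shared barcodes, and that of NR1H3 without Nubian goat 2.

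Of 21 uptake and efferocytosis genes 5 rose and 5 fell, with a median of 0.08, where 22.5% and 15.9% of all genes rose and fell. Without shared barcodes 2 rose and 1 fell. TREM2 rose by 2.57 ± 0.33. The scavenger receptor MARCO, also among the 5, stood at 73.4, 11, 1.60 and 34.2 CPM against 4.71, 2.04, 0 and 3.47 CPM, the latter being 5 UMIs in all, and no fold is given for it. CD36, which binds oxidised lipid, rose by 1.20 ± 0.29 and LRP1, a receptor for apolipoproteins, by 1.02 ± 0.19. DOCK1, which moves the membrane around an engulfed cell, fell by 1.00, COLEC12, a scavenger receptor also expressed on vessels, by 1.26 and the engulfment adaptor gene GULP1 by 1.25. The calls of CD36, LRP1, COLEC12 and GULP1 were lost without shared barcodes, that of CD36 also without Du'an goat 1, that of COLEC12 without Nubian goat 2, and that of GULP1 without either Du'an goat and without Nubian goat 2. Without nuclei of other types, the calls of CD36, LRP1, COLEC12 and DOCK1 were lost.

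Of 21 sensors and cytokines of inflammation 4 rose and 3 fell, with a median of -0.11, again near the shares of all genes, and 2 rose and 0 fell without shared barcodes. CD14, the co-receptor for lipopolysaccharide, rose by 1.74 ± 0.39, a call lost without nuclei of other types, although it was 137 against 163 CPM in Nubian goat 2. TLR8, an endosomal RNA sensor, rose by 1.32 ± 0.26. IL1B, at 43.5, 29.5, 3.20 and 2.39 CPM against 127, 55.1, 1.63 and 13.9 CPM, fell by 1.15. NOD1, a sensor of bacterial peptides, fell by 0.95 and NFKB1 by 0.75. These 3 falls were lost without shared barcodes, without nuclei of other types and without Nubian goat 2, and that of IL1B also without either Du'an goat. Chemokine genes rose in 3 of 7, also without shared barcodes: CXCL9, CXCL16 by 1.27 ± 0.36 and the receptor gene CXCR4 by 0.84 ± 0.25. CXCL9 stood at 1.36, 103, 17.6 and 8.69 CPM against 0, 20.4, 0 and 1.16 CPM. The latter are few UMIs, so no fold is given for it. CXCL16 was lower in the class in Du'an goat 1 (220 against 297 CPM) and CXCR4 in Nubian goat 2 (65.1 against 78.5 CPM). The call of CXCL16 was lost without Du'an goat 2, without Nubian goat 1 and without Nubian goat 2, and that of CXCR4 without either Du'an goat, without Nubian goat 1 and without nuclei of other types.

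Dendritic cell genes fell in 5 of 8 and rose in 1, with a median log2 fold change of -1.42. Without shared barcodes 2 of 7 fell and none rose. FLT3, FCER1A, LAMP3 and ZBTB46 had at most 12 CPM in the class, so they entered the test mainly through macrophages without C1q. The count and median are therefore a description, and no fold is given for these genes. FLT3, the receptor on which dendritic cells depend, stood at 2.72, 0.975, 12 and 8.69 CPM against 94.3, 69.4, 26.0 and 85.5 CPM. FCER1A, an IgE receptor chain of dendritic, mast and basophil cells, had 0, 0, 0 and 1.30 CPM against 231, 16.3, 1.63 and 27.7 CPM. LAMP3 was lower in the class in every goat but Nubian goat 1, where it was higher. Its call was lost without shared barcodes, without Du'an goat 1 and without Nubian goat 2. The transcription factor gene ZBTB46 was lower in the class in every goat, and its call was lost without Nubian goat 2. Among the genes named under the limits given below, the largest falls outside the lists were those of ANPEP, GNAO1 and PID1. ANPEP, a surface aminopeptidase of myeloid cells, and GNAO1, a G protein subunit, had at most 4.08 and 12.8 CPM in the class. No fold is given for these either, and PID1 fell by 2.54. FLT3, FCER1A, LAMP3 and ANPEP were each highest in the macrophages without C1q of Du'an goat 1, which numbered 31.

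Granulosa genes fell in 6 of 10 in the same comparison, and in none without shared barcodes. Their sum was 216, 845, 1990 and 162 CPM in the C1q class and 137, 3366, 3167 and 416 CPM in macrophages without C1q, lower in the C1q class in 3 of 4 goats. NR5A2 fell by 1.23 and CHST8 by 1.41. All 3 lymphatic endothelial genes tested fell as well (none without shared barcodes), among them MMRN1, a vessel adhesion protein, by 1.46, though it was 24.5 against 18.9 CPM in Du'an goat 1, a call also lost without Nubian goat 2. When every nucleus with 2 or more genes of another type was left out of both classes, 705 of 4084 genes rose and 29 fell, and 12 of 23 lysosomal genes still rose. That setting kept 53, 64, 21 and 150 nuclei of the C1q class and 20, 10, 12 and 40 without C1q. The C1q class of Nubian goat 1 then held 22799 UMIs. The part of this smaller size in the calls lost without nuclei of other types was not tested. Whether the falls of other lists follow from the granulosa and endothelial RNA in macrophages without C1q was not tested.

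**Figure D4:**
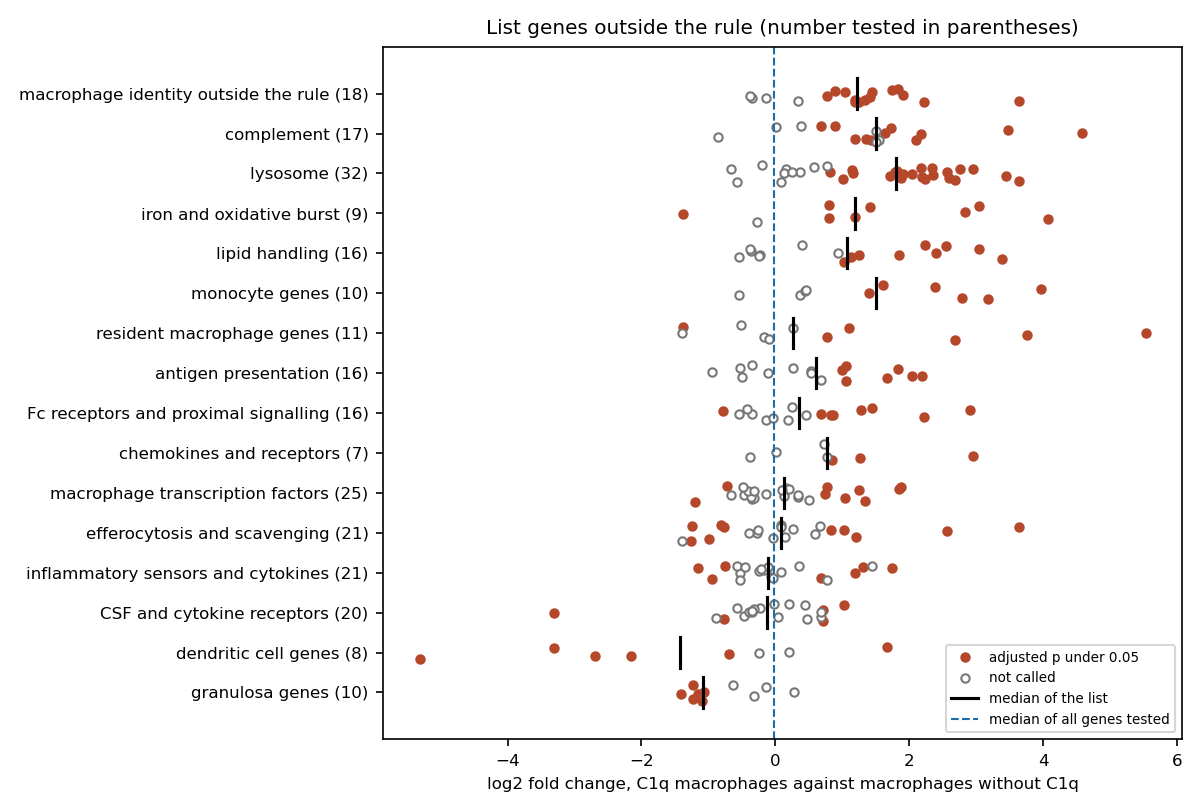
Each point is the log2 fold change of 1 gene of the named list in C1q macrophages against macrophages without C1q (edgeR, 4 goats); filled points passed an adjusted p of 0.05 and open points did not. Black bars are the median of each list, 1.80 for lysosomal and -1.42 for dendritic cell genes, and the dashed line is the median of all 10152 genes tested, -0.02. Several of the dendritic cell genes had few UMIs in C1q macrophages.

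Of 20 cytokine and growth factor receptor genes 3 rose and 2 fell, with a median of -0.13, below the share of all genes that rose, and 0 rose and 1 fell without shared barcodes. TNFRSF1A, a receptor for tumour necrosis factor, rose by 1.03 ± 0.29, a call lost without shared barcodes and without either Du'an goat. IL34, a ligand of CSF1R, stood at 40.8, 51.2, 23.2 and 46.1 CPM in the class and at 4.09, 2.50, 5.83 and 6.45 CPM in all other nuclei. Of 13 cell cycle genes tested, 2 rose, MCM5 and PCNA, a smaller share than the 22.5% of all genes. None of 12 did without shared barcodes. MCM5 stood at 4.08, 10.5, 15.2 and 59.7 CPM against 0, 6.12, 3.25 and 12.7 CPM. The latter are few UMIs, so no fold is given for it. PCNA, at 35.4, 46.3, 46.4 and 177 CPM against 0, 32.7, 1.63 and 27.7 CPM, rose by 2.53 ± 0.51, a call lost without shared barcodes and without Nubian goat 2. At least 3 cell cycle genes had a UMI in 5, 37, 16 and 109 nuclei of the class, and in 1, 5, 0 and 3 after each nucleus had been thinned to 400 UMIs.

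T or natural killer nuclei, the other abundant immune class, numbered 138, 1716, 512 and 345. Against them 3599 of 12602 genes rose (28.6%) and 3226 fell (25.6%), and without shared barcodes 2991 of 12611 rose (23.7%) and 2730 fell (21.6%). Identity genes rose in 15 of 18 and 1 fell (16 and 1 without shared barcodes), and lysosomal genes rose in 31 of 32 (30 without shared barcodes). Of these rises 4 among identity genes and 3 among lysosomal genes were over fewer than 10 UMIs in the T or natural killer nuclei. Of the 14 T and natural killer genes on the list, 9 had served to choose the T or natural killer nuclei, so their lower values are no result. Of the other 5, 4 fell and none rose. CTSL stood at 696, 245, 385 and 471 CPM against 1.87, 0.651, 0.454 and 0 CPM. S100A8 stood at 752, 802, 484 and 2812 CPM against 0, 2.12, 0 and 7.37 CPM. T or natural killer nuclei held few UMIs of either gene, so no fold is given. The T cell kinase gene LCK was measured at 0, 0.731, 0 and 0.217 CPM in the class, 5 UMIs in all, against 103, 88.5, 80.8 and 117 CPM. Of CD96 and CD28, both receptors of T cells, the class held 3 UMIs and 1 UMI. No fold is given for LCK, CD96 and CD28, which entered the test through the T or natural killer nuclei alone.

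The median mitochondrial share of UMIs per nucleus was 3.22%, 5.06%, 4.56% and 3.62% in the class and 1.42%, 3.42%, 3.16% and 2.34% in all other nuclei. It was higher in 4 of 4 goats, by 1.53 points ± 0.234 (SD), with p = 0.125 in a two-sided exact sign-flip permutation test, the smallest that 4 pairs allow. In macrophages without C1q the median was 2.43%, 3.64%, 3.70% and 4.05%, below the class in the first 3 goats and above it in Nubian goat 2. Over the summed UMIs the share was 4.21%, 6.04%, 4.09% and 3.77% in the class and 1.90%, 4.69%, 3.00% and 4.01% in all other nuclei, so that the class was below the rest in Nubian goat 2. A share above 20% was seen in 66 nuclei of the class. Median depth was higher than in the rest in 3 of 4 goats, by 0.69 ± 1.13 (SD) on the log2 scale (exact sign-flip p = 0.375), and in 4 of 4 by 1.84 once shallower copies were left out.

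The share of nuclei in the class varied more between the goats of a breed than between the breeds. It was 0.822% (exact binomial 95% interval 0.649 to 1.03) in Du'an goat 1 and 2.96% (2.65 to 3.29) in Du'an goat 2. In Nubian goat 1 it was 0.848% (0.715 to 0.997) and in Nubian goat 2 3.16% (2.84 to 3.5). The lower goat of each breed lay well below the higher goat of the other. These intervals cover counting error only.

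After thinning to 400 UMIs per nucleus the shares were 0.343%, 0.843%, 0.290% and 1.49%. The breed means were then 0.593% and 0.889%, 0.296 points apart (exact permutation test, two-sided, p = 1, n = 2 goats per breed, where the smallest possible is 0.333), and 0.113 points unthinned (p = 0.667, exact permutation). The difference turned to -0.303 points without Nubian goat 2 and rose to 0.895 without Nubian goat 1. Without shallower copies the share of Du'an goat 1 fell from 0.822% to 0.380%, while those of the others were 2.92%, 0.717% and 3.11%. No difference between breeds was detectable in this design.

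**Figure D5:**
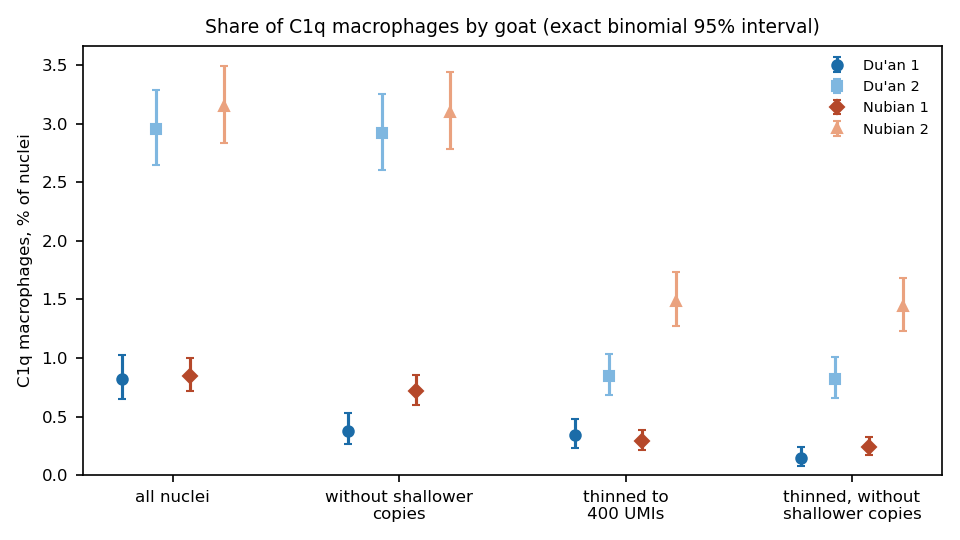
Share of nuclei in the class (percent) for each goat, with exact binomial 95% intervals, over all nuclei and after thinning to 400 UMIs, with and without shallower copies of shared barcodes. Du'an goat 2 and Nubian goat 2 were above Du'an goat 1 and Nubian goat 1 in each setting.

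Within the class, no gene differed between Nubian and Du'an goats at an adjusted p under 0.05 in edgeR, with 0 of 11679 genes in either direction (0%). At an unadjusted p under 0.05 there were 126 genes, and DESeq2 called 1 higher and 3 lower. Without Nubian goat 2, 356 genes were called higher in Nubian and 53 lower, and without Nubian goat 1, 42 and 70, fits in which a lone Nubian sample is taken to vary like the Du'an pair. Values below are therefore a description of 4 goats, of which Du'an goat 1 drew 42 of its 77 nuclei from shallower copies.

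Inflammatory genes stood lower in both Nubian goats than in both Du'an goats for 11 of 24 genes tested (45.8%), and higher for none, where 10.3% of all genes were lower and 8.57% higher without overlap. Without shared barcodes 8 of 24 were lower (33.3%), beside 1301 of 10835 genes in all. IL1B stood at 43.5 and 29.5 CPM in the Du'an goats and 3.20 and 2.39 CPM in the Nubian goats, a log2 fold change of -3.68 ± 0.63 that did not pass. IL1A stood at 118 and 185 CPM against 32.8 and 41.8 CPM, with -1.96 ± 0.57. Lipid handling genes were lower in both Nubian goats for 7 of 16 (43.8%), cytokine receptor genes for 7 of 20 (35%) and transcription factor genes for 7 of 25 (28.0%). Fc receptor and signalling genes were lower for 6 of 16 (37.5%) and antigen presentation genes for 5 of 16 (31.2%), with 2 of the latter higher. Without shared barcodes the counts were 8 of 16 for lipid handling, 5 of 20 for cytokine receptors, 6 of 25 for transcription factors, 9 of 16 for Fc receptors and 4 of 16 for antigen presentation. Cell cycle genes were higher in both Nubian goats for 7 of 15, with none lower, and for 9 of 15 without shared barcodes.

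Lysosomal genes were higher in both Nubian goats for 4 of 32 (12.5%) and lower for 2, beside 8.57% and 10.3% of all genes, and without shared barcodes for 9 and 5, beside 1520 and 1301 of 10835 genes in all. GPNMB, a glycoprotein of lipid-laden macrophages, was measured at 8.16 and 17.8 CPM in the Du'an goats and 84.7 and 170 CPM in the Nubian goats, a log2 fold change of 3.32 ± 0.70 that did not pass. CTSK, a collagen-cleaving protease, stood at 10.9 and 22.9 CPM against 251 and 34.5 CPM, with Nubian goat 1 far above the others. Stromal genes also summed highest in the class of that goat, to 1431 CPM, against 46.2, 64.6 and 24.1 CPM in Du'an goats 1 and 2 and Nubian goat 2. The part of stromal RNA in the levels of CTSK and C1R was not tested. C1R, a protease of the complement list that C1q activates, stood at 4.08 and 0.731 CPM against 26.4 and 10.3 CPM. The Du'an values are few UMIs, so no fold is given for C1R, which did not pass either.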

How the data were processed

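The deposited matrices hold raw UMI counts per gene and nucleus, made by the authors with Cell Ranger 5.0.0, per the labels (the matrix headers name another version), from 10x Genomics libraries; all 48332 barcodes were kept, and the study's own limits on UMIs, genes and mitochondrial share were not applied. The authors' tables of fold changes between granulosa groups were not used. The class, its gene lists (29 lists, of whose 438 entries 49 had no feature) and the tests were chosen with earlier results of these data known. Counts were summed per goat and class (R 4.3.3, Python 3.11.15). edgeR 4.0.16 was run with TMM scaling, its filter on low counts, a quasi-likelihood test, the goat as a block (none between breeds) and Benjamini-Hochberg adjustment over all genes, and DESeq2 1.42.0 as an alternative. The block is the goat itself, which gave nuclei to both classes; deviations of the sums of a goat in the C1q class and in macrophages without C1q correlated at 0.18 to 0.63 across 10180 genes. Genes used by the rule stayed in the fit and in the counts over all genes. They were left out of the list counts and the named genes, and no test of them is given. Outside the lists, up to 10 genes a direction were named, those with the largest change among genes that passed, had 1 sign in every goat and at least 50 CPM; of each list, up to 4 from either end. T or natural killer nuclei had no C1q UMI and at least 2 of 9 T cell genes, granulosa nuclei at least 3 of 7 granulosa genes and no place in the class. Nuclei were thinned to 400 UMIs by random draws without replacement (20 draws averaged). Mitochondrial share counts genes of the mitochondrial genome. The test was tried on simulated counts before use. Alternatives changed the scaling, filter, block, depth minimum, chains needed, mitochondrial limit, nuclei with other types' genes and each goat in turn; those on shared barcodes, shallower copies, nuclei that entered by CD74 alone and a crossed block were added after seeing the data. Each goat gave 1 library, so p-values rest on 4 animals. Gene names are those of the matrices. No sequence is printed, and some items are not reported here.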

Additional observations from a re-analysis of the deposited data

How the results depend on the processing

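Against macrophages without C1q, the counts of genes higher and lower were 18 and 0 with no replicate block, 705 and 29 without nuclei of other types, 850 and 144 without shared barcodes, and 1078 to 1962 and 350 to 1093 when each goat was left out. Of 68 genes named as changed there, 68 kept their call without shallower copies and with DESeq2, 45 of 66 without shared barcodes, 31 of 48 without nuclei of other types and 5 of 60 without the block; none changed direction. Against all other nuclei, 2710 genes rose without nuclei of other types, and leaving out a goat gave 3925 to 4665 higher and 4696 to 6653 lower. Against T or natural killer nuclei, 2052 genes fell with no replicate block, 2183 rose and 2043 fell without nuclei of other types, and leaving out a goat gave 2388 to 3600 and 1763 to 2992. Between breeds, DESeq2 gave 1 higher and 3 lower, no filter on low counts 81 and 17, leaving out nuclei of other types 1 and 2, and leaving out a goat 0 to 356 and 2 to 70. The replicate numbers of the breeds share only a number: Du'an goat 1 and Nubian goat 1 deviated from their breed means with a correlation of -0.34 across 10180 genes, a replicate block gave 0 higher and 1 lower, and the crossed pairing 0 and 0. The breed difference in share was -0.0502 points without shared barcodes, unthinned, and ran from -0.303 to 0.895 when a goat was left out. The cause of these changes was not tested. The class had a median depth of 1185 UMIs in Du'an goat 1, and of 14706 UMIs without shallower copies. On simulated counts with 2 goats per breed, the breed test recovered 0% of 2-fold and 20.4% of 4-fold changes. The simulation gave every gene the same spread between goats, which was not taken from these data. Its shares are therefore no measure of what the test could find here. Whether the number of goats alone limited the comparison was not tested.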
